A study of Drosophila melanogaster with 16 samples.

Results

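The proteasome subunit genes of *Drosophila melanogaster* were followed through the aging of motor neurons (MNs). The genes were found by name: every gene whose current symbol begins with Prosalpha, Prosbeta, Rpn or Rpt followed by a digit. This rule found 48 genes, of which 46 had at least 1 probe on the array, among 12977 genes that could be named on it. Of the 48 genes, 32 encode canonical subunits (14 of the core particle and 18 of the regulatory particle), and all 32 were measured. The other 16 are paralogs, of which 14 had a probe. Together the 46 genes carried 71 of the 45366 probes. The rule used no measured value.

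The 26S proteasome is the machine that degrades most ubiquitin-tagged proteins. Its barrel-shaped core particle (20S) is built from rings of alpha subunits, which gate the entrance, and rings of beta subunits, which hold the protease sites. The regulatory particle (19S) caps the barrel, and its base unfolds substrates with a ring of ATPases (Rpt subunits) while its lid removes ubiquitin chains. Neurons do not divide and so cannot dilute damaged proteins, and a decline of proteasome function is a recurring theme in work on aging nervous systems. In flies, many core and base genes have duplicated copies that are known for their use in the male germline.

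Every sample was a pool of GFP-positive MNs sorted by flow cytometry from the thoracic ganglion of female flies, with about 10000 neurons from 5 flies per pool. GFP was expressed with the D42 driver, so the sample is defined by where that driver is active, and all ages carried the driver and the reporter. Flies aged at 25 °C, and MNs were taken at 7 days (5 pools), 35 days (5 pools) and 45 days after eclosion (6 pools), with 1 array per pool. The RNA was amplified 2 times before hybridization to a single-color (Cy3) custom Agilent array. The question put to the members was whether their transcripts differed between ages. Array signal is relative, so fewer MNs of a type and less RNA per MN cannot be told apart.

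Signal is given as the log2 intensity of a gene relative to the 75th percentile of its array, so that 0 is that percentile and a difference of 1 is 2-fold. Probes well above background made up 56.7% to 67.1% of the spots of an array, and 0 spots were saturated. All 8 neuronal markers (among them elav, nSyb and Syt1) were well above background on all 16 arrays. No probe was assigned to VGlut, the motor neuron marker, so motor identity was not checked. Markers of other cells were also present: 6 of 6 glial, 5 of 8 muscle, 3 of 5 fat body and 1 of 2 tracheal genes were above background on every array. The same held for 0 of 4 hemocyte and 0 of 7 testis genes. The summed muscle signal spanned −0.25 to 2.92 at 7 days, 1.09 to 2.65 at 35 days and 2.13 to 3.98 at 45 days, the summed fat body signal 1.60 to 4.28, 2.39 to 4.39 and 3.38 to 5.14, and the summed glial signal 2.99 to 4.14, 2.96 to 3.62 and 2.73 to 3.49. The part of these cells in the results below was not tested. Arrays lay on 2 slides with 2 rows each. All 7-day arrays lay in row 2 and all 35-day arrays in row 1, so that age and row cannot be told apart between them within those arrays, while the 45-day arrays lay 3 in each row.

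No canonical subunit passed the test for a change between any pair of ages. Between 45 and 7 days, 0 of the 46 proteasome genes passed the threshold of an adjusted p under 0.05 and a change over 2-fold by limma, a linear model with moderated variances, adjusted over all 12977 genes. Of all genes, 0% passed in this comparison. At 35 over 7 days the threshold was passed by 0 of 46 members, against 0.1% of all genes. At 45 over 35 days it was passed by 0 of 46, against 0.00771%. Across the 3 ages, limma's moderated F test called 0 of 46 members at an adjusted p under 0.05, where 0.0694% of all genes were called, and the lowest adjusted p of a member was 0.217. The plain unpaired test named in the methods, run on the same values, also called 0 members in each comparison after Benjamini-Hochberg adjustment.

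Counts at an unadjusted p under 0.05 gave the same picture for the canonical subunits. Between 45 and 7 days, 0 of 32 were higher and 0 lower, where 2.44% of all genes were higher and 6.61% lower. Between 35 and 7 days, 2 of 32 were higher (Rpn3 and Prosbeta6) and 1 was lower (Rpt1), where 2.97% of all genes were higher and 21.2% lower. Between 45 and 35 days, 1 of 32 was higher (Rpn2) and 0 lower, where 5.03% of all genes were higher and 1.99% lower. By the F test, 1 of 32 canonical subunits had an unadjusted p under 0.05 (Rpn3), against 18.3% of all genes.

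The median log2 change of the 32 canonical subunits was −0.033 at 45 over 7 days, where the median of all genes was −0.21. It was 0.021 at 35 over 7 days (all genes −0.34) and −0.067 at 45 over 35 days (all genes 0.15). In these 3 comparisons 24, 24 and 7 of 32 subunits lay above the all-gene median. The all-gene figures, here and in the counts above, include 3445 genes whose probes were above background on at most 4 arrays. A setting chosen after seeing the data kept only probes well above background on all 16 arrays (6908 genes, 31 of them canonical). The canonical medians were then −0.027, 0.17 and −0.073, and those of all genes −0.039, 0.025 and −0.063. The place of 0 depends on the scaling: with each array scaled by its own median, the first 2 canonical medians were 0.29 and 0.37, and those of all genes 0.12 and 0.0060. The 95% interval of the change lay within 2-fold in either direction for 23 of 32 subunits at 45 over 7 days (71.9%, against 33.7% of all genes). The same held for 22 at 35 over 7 days (68.8%, against 23.1%) and for 22 at 45 over 35 days (68.8%, against 25.1%). For these subunits a change over 2-fold lay outside the interval, while smaller changes lay within it. Protein and proteasome activity were not measured.

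**Figure D1:**
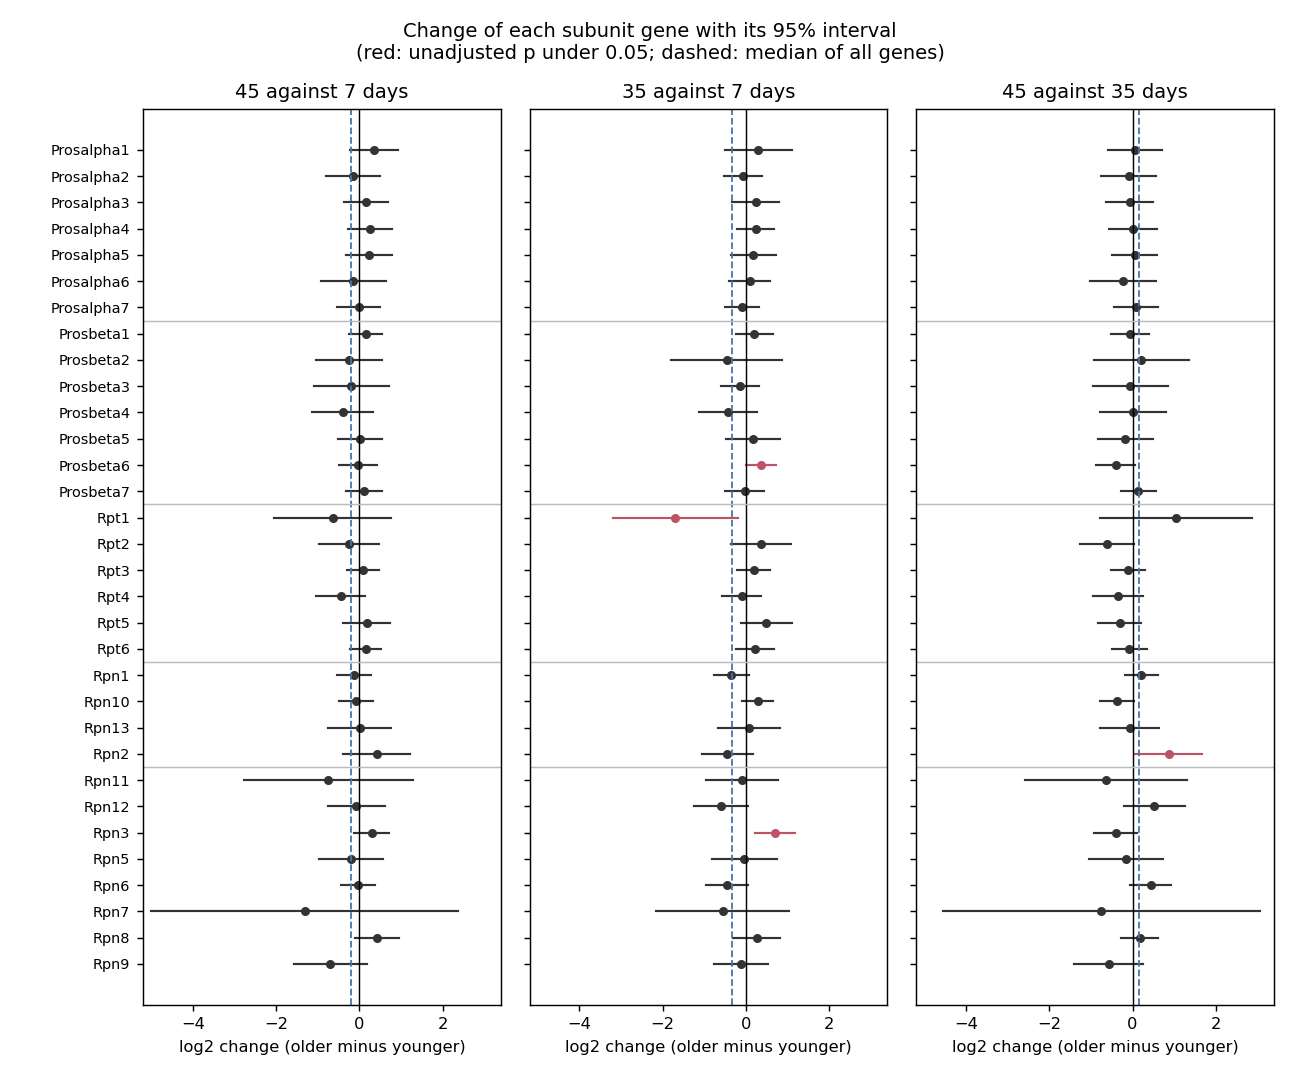
Log2 change of each of the 32 canonical subunit genes (rows, grouped by role) in 3 comparisons of ages, as points with 95% intervals from limma, where positive values are higher at the older age. Red marks an unadjusted p under 0.05 (0, 3 and 1 genes), and the dashed line is the median of all genes (−0.21, −0.34 and 0.15).

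The alpha subunits form the outer rings of the core particle and control its gate. All 7 were well above background on every array. Between 45 and 7 days 4 were higher and 3 lower in mean, with a median change of 0.16 and a range of −0.17 to 0.35, and none of the 7 reached an unadjusted p of 0.05. The median was 0.18 at 35 over 7 days (range −0.10 to 0.29) and 0.017 at 45 over 35 days (range −0.23 to 0.086). All 7 intervals lay within 2-fold between 45 and 7 days. One caution applies to Prosalpha1, whose copy Prosalpha1R has no probe of its own here: whether the 3 probes of Prosalpha1 also bind transcripts of the copy was not tested.

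The beta subunits line the degradation chamber, and Prosbeta1, Prosbeta2 and Prosbeta5 carry the protease sites with caspase-like, trypsin-like and chymotrypsin-like activity. Prosbeta1 had 2.23, 2.25, 1.90, 1.81, 1.85 and 2.44 on the 45-day arrays, against 2.10, 2.06, 1.75, 1.82 and 1.95 on the 7-day arrays. The groups overlapped, and the log2 change of 0.15 (95% interval −0.26 to 0.55) had an adjusted p of 0.790 by limma. Prosbeta5 had 2.04, 2.29, 1.86, 2.62, 2.29 and 2.97 on the 45-day arrays, against 2.08, 2.20, 2.54, 2.15 and 2.73 on the 7-day arrays. Its mean was 2.34 ± 0.40 (SD, n = 6) at 45 days and 2.34 ± 0.28 (n = 5) at 7 days, a log2 change of 0.0054 with an interval of −0.53 to 0.54. For both genes the interval included 0 and lay within 2-fold.

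Prosbeta2 was less certain. It had −1.61, −1.22, −1.21, −0.44, −1.82 and −1.08 on the 45-day arrays, against −0.48, −1.27, −1.18, −0.092 and −1.91 on the 7-day arrays. The ages overlapped throughout, with a log2 change of −0.24 (interval −1.03 to 0.55, adjusted p = 0.820 by limma). Its 2 probes differed most between 35 and 7 days, with −1.31 for the first and 0.39 for the second. The first was above background on 15 of 16 arrays. Over the 7 beta subunits the median change was −0.039 at 45 over 7 days (range −0.41 to 0.15). It was −0.030 at 35 over 7 days and −0.051 at 45 over 35 days.

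Prosbeta6, a beta subunit without a protease site, was the core gene with the lowest p between 35 and 7 days. It had 2.26, 2.24, 2.34, 2.15 and 2.24 on the 35-day arrays, against 1.90, 1.83, 1.72, 2.01 and 1.93 on the 7-day arrays. All 35-day arrays lay above all 7-day arrays, and the log2 change was 0.37 (interval 0.012 to 0.72). The exact two-sided permutation p was 0.0079, the smallest that 5 against 5 arrays can give, while limma gave an unadjusted p of 0.0442 and an adjusted p of 0.193. With the slide row as a term, which rests on the 45-day arrays of both rows, the change was 0.15. On slide 1 alone it was 0.42 and on slide 2 alone 0.31. The 45-day arrays had 1.71, 1.49, 1.40, 2.08, 2.06 and 2.30, of which 1.71, 2.08 and 2.06 came from row 1 and 1.49, 1.40 and 2.30 from row 2. Of these, 2.30 in row 2 lay within the 35-day range of 2.15 to 2.34, and the other 45-day arrays lay below it. Age and row cannot be told apart within the 7-day and 35-day arrays.

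**Figure D2:**
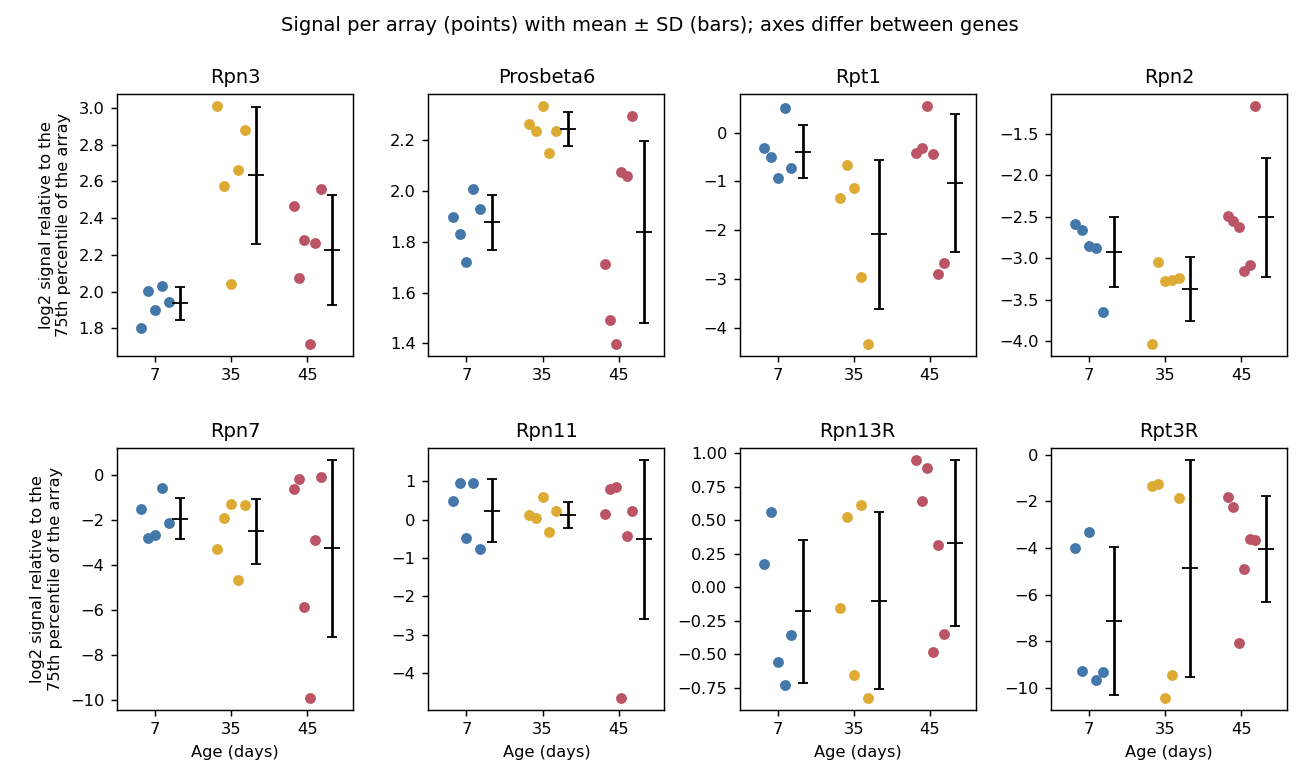
Log2 signal relative to the 75th percentile of the array for 8 proteasome genes at 7, 35 and 45 days, with each array as a point and the mean ± SD as a bar (n = 5, 5 and 6), on axes that differ between genes. Rpn3 and Prosbeta6 stand highest at 35 days, and Rpt1 has 4 low arrays at the older ages. Rpn7 has low 45-day arrays at −5.84 and −9.90, and Rpn11 has a single 45-day array far below the rest. Rpt3R splits into high and low arrays at each age.

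The 6 base ATPases form the ring that unfolds a substrate and threads it into the core. Their median log2 change was −0.085 at 45 over 7 days (range −0.65 to 0.17), 0.20 at 35 over 7 days (range −1.69 to 0.49) and −0.21 at 45 over 35 days (range −0.60 to 1.05). Rpt4 had the lowest p of the ATPases between 45 and 7 days. It had 0.87, 1.15, 1.24, −0.11, 0.57 and 0.98 on the 45-day arrays, against 1.37, 1.56, 0.96, 1.29 and 0.98 on the 7-day arrays. The log2 change was −0.45 (interval −1.04 to 0.14), with an adjusted p of 0.618 by limma and an exact permutation p of 0.0974. Without replicate 4 of the 45-day arrays, the lowest, it was −0.27, and within slide row 2 it was −0.11. By probe, the change was −0.15 for probe 1 and −0.75 for probe 2, with an adjusted p of 0.316 over all probes by limma for the second.

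Rpt1 had the largest change of any canonical subunit between 35 and 7 days. It had −1.34, −0.66, −1.14, −2.95 and −4.33 on the 35-day arrays, against −0.31, −0.50, −0.92, 0.50 and −0.72 on the 7-day arrays. Only 4 of 5 of the 35-day arrays lay below all 7-day arrays, and the log2 change of −1.69 (interval −3.20 to −0.19) had an adjusted p of 0.162 by limma and an exact permutation p of 0.0238. The size rested on replicates 4 and 5, both on slide 2: the change was −3.26 within slide 2 and −0.64 within slide 1. The 45-day arrays divided in the same way, with −0.42, −0.32, 0.56 and −0.45 for replicates 1 to 4 and −2.90 and −2.68 for replicates 5 and 6, which lay on slide 2 as well. Other arrays of slide 2 were not low, namely replicate 4 at 45 days and the 3 arrays at 7 days (−0.92, 0.50 and −0.72). The cause of the low arrays was not tested. The gene has a single probe, which was above background on all 16 arrays.

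Rpt2 had the second lowest p of the canonical subunits between 45 and 35 days. It had 0.88, 0.30, 0.057, 0.69, 1.40 and 1.06 on the 45-day arrays, against 1.62, 0.85, 0.99, 1.79 and 1.42 on the 35-day arrays. The groups overlapped, and the log2 change was −0.60 (interval −1.25 to 0.045, adjusted p = 0.527 by limma, exact permutation p = 0.0606). Within slide row 1, where both ages are present, it was −0.34. Rpt3, Rpt5 and Rpt6 were not singled out by the rule, and all 3 had intervals that included 0 in each comparison.

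The other base subunits are the large scaffolds Rpn1 and Rpn2 and the ubiquitin receptors Rpn10 and Rpn13. Rpn10 had 1.64, 1.52, 1.50, 2.04, 1.68 and 2.04 on the 45-day arrays, against 1.73, 1.91, 1.69, 2.06 and 1.71 on the 7-day arrays. At 45 days 4 of 6 arrays lay below all 7-day arrays, but the other 2 lay high, with a log2 change of −0.084 (interval −0.49 to 0.32, adjusted p = 0.883 by limma). On the 35-day arrays Rpn10 had 2.06, 1.99, 2.02, 2.19 and 2.24, and 4 of the 6 45-day arrays lay below all of them. The 45-day arrays differed from the 35-day arrays by −0.36 (interval −0.77 to 0.045), with an adjusted p of 0.527 by limma and an exact permutation p of 0.0281.

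Rpn2 was the one canonical subunit with an unadjusted p under 0.05 between 45 and 35 days. It had −2.48, −2.55, −2.63, −3.15, −3.08 and −1.15 on the 45-day arrays, against −4.04, −3.04, −3.27, −3.27 and −3.24 on the 35-day arrays. The log2 change of 0.87 (interval 0.065 to 1.67) had an adjusted p of 0.527 by limma and an exact permutation p of 0.0195. Within slide row 1 it was 0.47, and without replicate 6 of the 45-day arrays 0.59. The probes of Rpn2 did not move together: probe 1 differed by 1.47, probe 2 by 0.00041 and probe 3, above background on 1 of 16 arrays, by 1.12. The value of the gene thus included a probe at background.

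The lid is built around Rpn11, the deubiquitinase that strips the ubiquitin chain from the substrate, and its partner Rpn8. The other lid subunits are mainly structural, and Rpn6 clamps the lid to the core. The median log2 change of the 8 lid genes was −0.14 at 45 over 7 days (range −1.31 to 0.43), −0.11 at 35 over 7 days (range −0.60 to 0.70) and −0.28 at 45 over 35 days (range −0.75 to 0.53). Rpn8 had 2.70, 2.02, 2.49, 2.59, 2.27 and 2.66 on the 45-day arrays, against 1.76, 2.63, 1.69, 2.36 and 1.67 on the 7-day arrays. The log2 change of 0.43 (interval −0.10 to 0.96) had the lowest unadjusted p of all canonical subunits in that comparison, 0.101, with an adjusted p of 0.608 by limma. Only 2 of the 6 45-day arrays lay above all 7-day arrays, since replicates 2 and 4 at 7 days reached the 45-day range. Without replicate 2 at 7 days the change was 0.58, with an unadjusted p of 0.0315 by limma; the exact permutation p with all arrays was 0.0801.

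Rpn11 showed how a single array can set a mean. It had 0.15, 0.79, 0.85, −4.65, −0.43 and 0.23 on the 45-day arrays, against 0.50, 0.97, −0.48, 0.97 and −0.77 on the 7-day arrays. Replicate 4 of the 45-day arrays stood alone. The log2 change was −0.75 (interval −2.79 to 1.30, adjusted p = 0.783 by limma) with that array and 0.084 without it. Both probes were at their lowest there, with −9.14 for probe 1, which was not above background on that array, and −0.17 for probe 2.

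Rpn3 had the lowest p of the canonical subunits over the 3 ages. It had 3.01, 2.57, 2.04, 2.66 and 2.88 on the 35-day arrays, against 1.80, 2.00, 1.90, 2.03 and 1.95 on the 7-day arrays. All 35-day arrays lay above all 7-day arrays, and the log2 change was 0.70 (interval 0.21 to 1.18). The exact permutation p was 0.0079, the smallest possible, with an unadjusted p of 0.0094 and an adjusted p of 0.112 by limma. The change was 0.64 on slide 1, 0.81 on slide 2 and 0.85 with the slide row as a term. The 45-day arrays had 2.47, 2.07, 2.28, 1.72, 2.27 and 2.56, of which 5 of 6 lay above all 7-day arrays. The 45-day mean was higher than the 7-day mean by 0.29 (interval −0.13 to 0.71, adjusted p = 0.645 by limma, exact permutation p = 0.0736), and by 0.37 within slide row 2. Rpn3 was measured by a single probe, which was above background on every array.

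Rpn6, whose increase in *Caenorhabditis elegans* is known to raise resistance to protein stress, had 1.54, 1.38, 1.91, 1.77, 1.33 and 1.37 on the 45-day arrays, against 1.37, 1.70, 1.81, 1.62 and 1.38 on the 7-day arrays. The levels were alike, with a log2 change of −0.027 (interval −0.44 to 0.38, adjusted p = 0.974 by limma). On the 35-day arrays it had 0.98, 1.27, 0.63, 1.64 and 1.04, and the 45-day arrays were higher by 0.44 (interval −0.061 to 0.93, adjusted p = 0.527, exact permutation p = 0.0411). Its 2 probes gave 0.67 and 0.21 in that comparison.

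Rpn9 had 0.086, 0.40, −1.73, 0.35, −0.32 and −0.24 on the 45-day arrays, against 0.92, 0.32, −0.27, 0.98 and 0.31 on the 7-day arrays. The log2 change of −0.69 (interval −1.58 to 0.19, adjusted p = 0.611 by limma) was −0.40 without replicate 3 of the 45-day arrays, which was far below the others. Rpn12 had −2.16, −2.15, −3.12, −1.95 and −1.98 on the 35-day arrays, against −1.49, −1.25, −1.98, −2.14 and −1.49 on the 7-day arrays. Its log2 change was −0.60 (interval −1.25 to 0.048, adjusted p = 0.241 by limma), with −1.10 on slide 1 and −0.095 on slide 2. With the slide row as a term, the change had the opposite sign, 0.27. One of the 3 probes of Rpn12 was above background on 1 of 16 arrays.

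Rpn7 was chosen for mention after its values were seen, because its 45-day arrays spread more than those of any other canonical subunit. It had −1.52, −2.78, −2.66, −0.57 and −2.14 on the 7-day arrays, −3.29, −1.91, −1.29, −4.66 and −1.33 on the 35-day arrays, and −0.61, −0.15, −5.84, −9.90, −2.86 and −0.092 on the 45-day arrays. Its SD was 0.91, 1.45 and 3.94 at the 3 ages, and its single probe was not above background on replicate 4 of the 45-day arrays. The interval of its change between 45 and 7 days, −5.00 to 2.38, therefore bounds little.

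**Figure D3:**
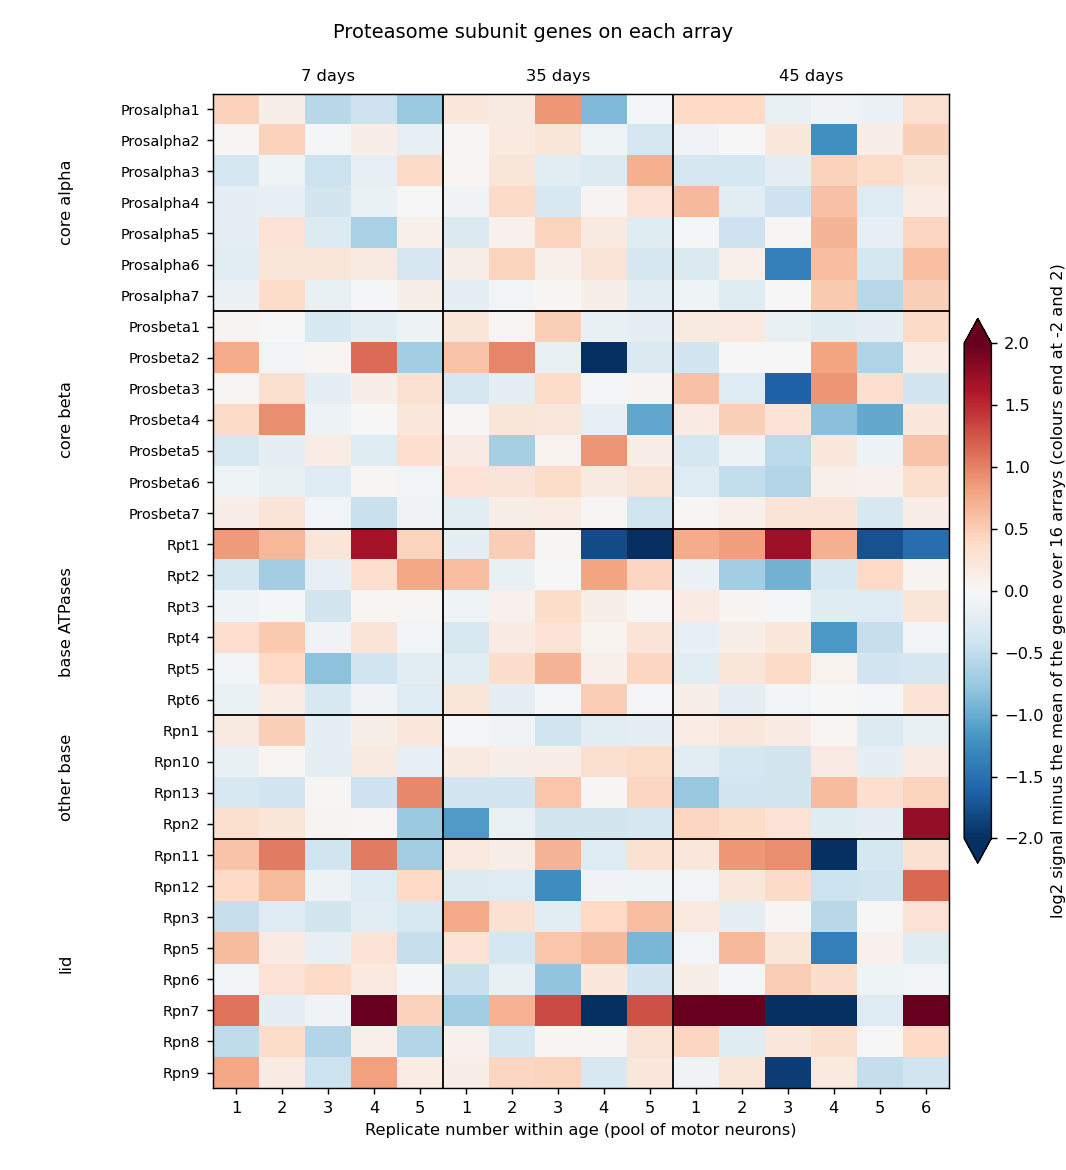
Log2 signal of the 32 canonical subunit genes on each of the 16 arrays (columns, by age and replicate), minus the mean of the gene over the arrays, in rows grouped by role, with colors ending at −2 and 2. The darkest cells are scattered and fall mostly on Rpn7, Rpt1, Rpn11 and single arrays, and no role shifts as a block with age.

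The level of each array was taken as the mean over the 32 genes of the difference from the 16-array mean of the gene. It averaged 0.049 ± 0.15 at 7 days, 0.0054 ± 0.11 at 35 days and −0.045 ± 0.24 at 45 days (SD, n = 5, 5 and 6). Core genes averaged −0.013 ± 0.12, 0.025 ± 0.16 and −0.0096 ± 0.23, and regulatory particle genes 0.097 ± 0.20, −0.0096 ± 0.087 and −0.073 ± 0.39. The arrays of the 3 ages overlapped in each of these levels, and no test of them was made. The lowest array of all was replicate 4 of the 45-day arrays at −0.34, where the core genes stood at 0.20 and the regulatory genes at −0.76. The regulatory value includes Rpn7 at −9.90 and Rpn11 at −4.65, each with a probe not above background on that array. Both genes also enter the regulatory mean and SD at 45 days, and the level without them was not computed. On that array 6 of 32 subunits lay more than 1 below the median of their age, whereas 15 of 32 lay below it at all. The same array had the lowest share of spots well above background, 56.7%. The highest was replicate 6 of the 45-day arrays at 0.28, with 0.29 for the core and 0.27 for the regulatory genes.

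**Figure D4:**
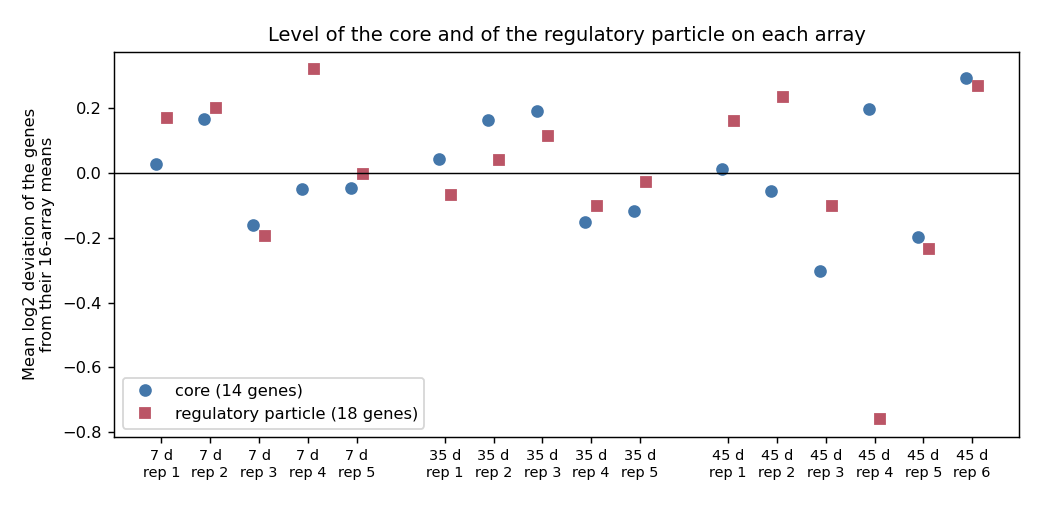
Mean log2 deviation of the 14 core genes (circles) and the 18 regulatory particle genes (squares) from their 16-array means, for each array by age and replicate. Both stay between −0.30 and 0.32 on all arrays except replicate 4 of the 45-day arrays, where the regulatory genes stand at −0.76. That mean includes Rpn7 at −9.90 and Rpn11 at −4.65.

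The arrays of the oldest age differed most among themselves. The median SD of the 32 canonical subunits between arrays was 0.30 at 7 days, 0.32 at 35 days and 0.44 at 45 days, beside 0.45, 0.51 and 0.58 for the 6889 genes compared that had a probe above background on every array. The SD was highest at 45 days for 17 of 32 subunits, at 35 days for 9 and at 7 days for 6. That count was not made for all genes. An SD over 1 was seen for 0 subunits at 7 days, 3 at 35 days and 3 at 45 days. The same held for 905, 1369 and 1649 of the 6889 bright genes. In median SD the bright genes as a whole had the same order of ages, and no test of it was made. Among the 45-day arrays, the 3 pools in row 1 differed from the 3 in row 2 by a median of −0.12 over the canonical subunits and −0.32 over all genes. The mean levels of the canonical subunits overlapped between the rows (−0.34 to 0.095 in row 1 and −0.19 to 0.28 in row 2), and row and pool cannot be told apart there.

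How far the probes of one gene agreed sets a further limit. Of the 32 canonical genes, 15 had 1 probe, 13 had 2 and 4 had 3. Over all 53 probes, 47 were above background on 16 arrays, 3 on 15 arrays, and 3 (a dim probe each of Rpn12, Rpn13 and Rpn2) on 1 to 4. For the 17 genes with more than 1 probe above background on at least 15 arrays, probes pointed in opposite directions for 3 genes at 45 over 7 days, 9 at 35 over 7 days and 5 at 45 over 35 days. The median difference between the probes of a gene was 0.17, 0.38 and 0.28 on the log2 scale, in the same 3 comparisons. By probe, 0 of the 53 canonical probes were called at 45 over 7 days, where 0.375% of all probes were, 0 at 35 over 7 days (0.097% of all probes) and 0 at 45 over 35 days (0.0154%).

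The paralogs gave a different picture from the canonical genes, in that most were not measured above background. Their symbols carry a T or an R after that of the canonical gene, and several are known in flies from the testis. Of their 18 probes, 1 was well above background on all 16 arrays, 1 on 10, 1 on 7 and 15 on 0 to 4. Testis markers were low as well: of 7 genes, betaTub85D was above background on 15 arrays and the others on 1 to 9, and their summed signal spanned −5.98 to −4.91 at 7 days, −5.60 to −1.67 at 35 days and −4.27 to −2.04 at 45 days. Of these 7, 1 (can) was higher between 45 and 7 days at an unadjusted p under 0.05, and 0 were called. Of all genes, 2.44% were higher. The log2 change of can was 3.89 (interval 2.65 to 5.12). Its adjusted p of 0.0597 by limma equaled the lowest of any gene in that comparison. It has 1 probe, above background on 9 of 16 arrays, with −9.65, −8.39, −9.56, −9.99 and −7.21 on the 7-day arrays. Of the other markers, Mst87F (2.19), dj (1.15) and betaTub85D (0.85) were higher in mean. ProtB (−0.33), Mst98Ca (−0.27) and aly (−0.065) were lower. The summed testis signal of all 45-day arrays lay above that of all 7-day arrays, and the cause was not tested.

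**Figure D5:**
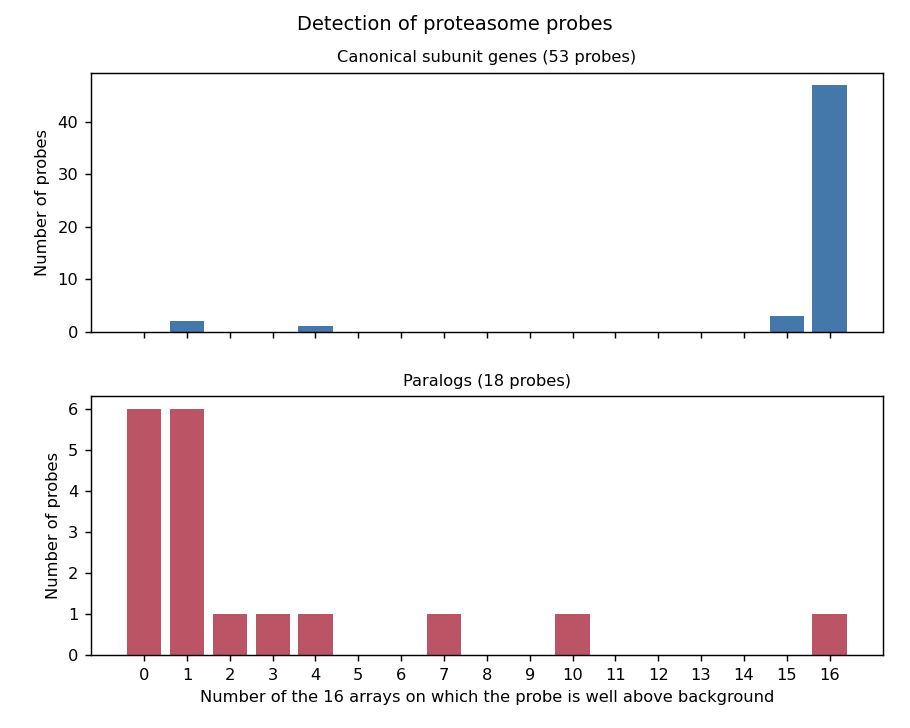
Number of probes (bars) by the number of the 16 arrays on which they are well above background, for the 53 probes of canonical subunit genes (top) and the 18 probes of paralogs (bottom). Of the canonical probes 47 stand at 16 arrays, while 15 of the paralog probes stand at 4 or fewer.

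Rpn13R, the paralog of a ubiquitin receptor, was the exception and was above background on every array. It had 0.95, 0.64, 0.89, −0.48, 0.32 and −0.35 on the 45-day arrays, against 0.17, 0.56, −0.56, −0.73 and −0.35 on the 7-day arrays. The groups overlapped, with a log2 change of 0.51 (interval −0.27 to 1.29, adjusted p = 0.660 by limma). On the 35-day arrays it had −0.15, 0.53, −0.65, 0.61 and −0.82. The spread within each age, with SDs of 0.53, 0.66 and 0.62 at 7, 35 and 45 days, was larger than the changes.

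Rpt3R, a paralog of an ATPase, was either near background or clearly above it. It was above background on 5 of 6 of the 45-day arrays, 3 of 5 of the 35-day arrays and 2 of 5 of the 7-day arrays. The levels were −1.82, −2.24, −8.08, −4.89, −3.60 and −3.64 on the 45-day arrays, against −3.99, −9.29, −3.31, −9.65 and −9.31 on the 7-day arrays. On the 35-day arrays they were −1.33, −1.25, −10.42, −9.44 and −1.85. The log2 change of 3.07 between 45 and 7 days (interval −0.26 to 6.40) had an adjusted p of 0.581 by limma and an exact permutation p of 0.0823. Each age held arrays above background and arrays not above it.

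Rpt6R, another ATPase paralog, was chosen for mention after its values were seen. Its probe 1 had −2.34, −5.93, −1.31, −10.15, −5.11 and −6.18 on the 45-day arrays, against −10.44, −10.27, −10.62, −8.91 and −10.10 on the 35-day arrays. It was above background on 5 of 6 of the 45-day arrays, in both slide rows (2 of 3 and 3 of 3), and on 0 of 5 of the 35-day arrays. Its mean log2 signal at 45 days was 9.01-fold above the mean of the lowest signals well above background on the 35-day arrays. That mean includes replicate 4, which was not above background, so 9.01-fold is not a strict minimum. The difference was not called, with an adjusted p of 0.456 over all probes by limma. The ratio of 9.01-fold became 5.28-fold without replicate 3 and 17.97-fold without replicate 4 of the 45-day arrays. The 7-day arrays had −8.81, −1.39, −8.97, −4.80 and −8.28, with 2 of 5 above background. Probe 2 of the same gene was above background on 1 of 16 arrays, at 35 days, so that the pattern rested on 1 probe.

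The remaining paralogs lay at or near background. At an unadjusted p under 0.05, 8 of 14 paralogs (Rpt6R among them) were lower and 0 higher at 35 over 7 days, 4 (Rpt6R among them) were higher and 0 lower at 45 over 35 days, and 1 was lower and 0 higher at 45 over 7 days. The background shares are 21.2% lower, 5.03% higher and 6.61% lower. All 11 paralogs whose probes were above background on at most 4 arrays were lower between 35 and 7 days and higher between 45 and 35 days. Of the 3445 genes on the array that met the same limit, 90.7% were lower and 86.0% higher in those comparisons. The lowest signal well above background was −8.89 to −7.57 on the arrays of slide row 1, which held all 35-day arrays, and −7.75 to −7.22 on those of row 2, which held all 7-day arrays. The part of the background level in these counts was not tested. Without replicate 4 of the 35-day arrays, 5 of 46 members were called between 35 and 7 days (Prosalpha3T, Prosalpha6T, Prosbeta2R1, Prosbeta4R1 and Prosbeta5R1, all lower), beside 8.84% of all genes. None of these 5 was above background on any 7-day array, so no fold change is given for them.

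The wider pathway was followed through 58 genes in lists of ubiquitin genes, proteasome assembly factors and regulators, shuttle and segregase factors, E1 and E2 enzymes, E3 ligases and deubiquitinases, and transcriptional regulators, of which 48 were measured. By limma, 0 of 48 were called in any comparison. At an unadjusted p under 0.05, 1 was higher and 0 lower between 45 and 7 days, 0 higher and 2 lower at 35 over 7 days, and 0 in either direction at 45 over 35 days. Of all genes, 2.44% were higher and 6.61% lower, 2.97% higher and 21.2% lower, and 5.03% higher and 1.99% lower in these comparisons. The 48 genes had median log2 changes of −0.023, −0.045 and 0.00078.

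The gene that was higher between 45 and 7 days was Txl, a thioredoxin-like protein whose human counterpart binds the 26S proteasome. It had 2.18, 2.29, 2.17, 2.07, 2.14 and 2.21 on the 45-day arrays, against 2.03, 1.57, 1.54, 1.73 and 1.82 on the 7-day arrays. All 45-day arrays lay above all 7-day arrays, and the log2 change of 0.44 (interval 0.083 to 0.79) had an adjusted p of 0.491 by limma. Ubqn, a shuttle factor that carries ubiquitinated proteins to the proteasome, had −1.63, −1.85, −1.64, −1.93, −0.97 and −1.74 on the 45-day arrays, against −0.018, −0.61, −1.28, −1.34 and −1.57 on the 7-day arrays. Its change was −0.67 (interval −1.35 to 0.015, adjusted p = 0.560 by limma). It was 0.11 with the brightest of its 3 probes, −0.074 with only the probes above background on all 16 arrays, and −0.43 without replicate 1 at 7 days.

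Between 35 and 7 days, the 2 pathway genes with the lowest p were Keap1, which binds the transcription factor cnc, and Uba1, the ubiquitin-activating enzyme. Keap1 had −5.84, −5.44, −1.71, −2.51 and −5.49 on the 35-day arrays, against −1.48, −1.62, −1.59, −2.72 and −1.55 on the 7-day arrays, a log2 change of −2.41 (interval −4.26 to −0.56, adjusted p = 0.119 by limma). Replicates 1, 2 and 5 at 35 days carried that change, and 2 of the 45-day arrays were also low, at −4.16 and −6.72. Uba1 had −4.30, −4.61, −4.60, −3.53 and −3.80 on the 35-day arrays, against −2.38, −3.46, −3.38, −3.71 and −3.46 on the 7-day arrays, a log2 change of −0.89 (interval −1.62 to −0.16, adjusted p = 0.134 by limma).

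Between 45 and 35 days the lowest p-values belonged to CG9588, which is related to a proteasome assembly chaperone, and Sem1, a small lid subunit that the naming rule did not catch. CG9588 had 0.12, −0.67, −1.30, −1.95, −0.33 and −0.031 on the 45-day arrays, against 0.072, −0.80, −0.012, 1.22 and 1.45 on the 35-day arrays, a log2 change of −1.08 (interval −2.19 to 0.026, adjusted p = 0.527 by limma). Sem1 had 3.49, 3.31, 3.39, 4.09, 3.41 and 3.93 on the 45-day arrays, against 3.07, 3.01, 3.02, 3.52 and 3.13 on the 35-day arrays, a change of 0.45 (interval −0.024 to 0.93, adjusted p = 0.527 by limma). Only replicate 4 of the 35-day arrays reached the 45-day range of Sem1.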

How the data were processed

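RNA of 16 pools of sorted MNs was hybridized to 16 single-color arrays. The intensity of each spot was deposited by the authors as Feature Extraction 11.5.1.1 wrote it, background-adjusted and not scaled between arrays (probe design on build dm3). A table of log2 values, normalized by the authors to the 75th percentile and centered on the median of each probe over the arrays, was deposited as well. It served as an alternative. Here, spots marked as outliers were left out, spots of a probe were averaged, and the 75th percentile of log2 intensity over probes was subtracted. Probes with a value on every array were averaged to 1 value per gene. Probes were assigned by accession through a RefSeq gene table of Release 6, which named 33153 of 45366 probes. A further 1771 were named by the array's own design table and 80 by a shared transcript, and 10362 stayed without a symbol.

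Ages were tested pairwise by limma (version 3.58.1, under R 4.3.3), with Benjamini-Hochberg adjustment over 12977 genes. A call needs an adjusted p under 0.05 and a change over 2-fold. Exact permutation tests are two-sided and not adjusted for the number of genes. Their smallest p is 0.0022 for 5 against 6 arrays and 0.0079 for 5 against 5. The p-values reflect the spread between pools. Values by array are given for Prosbeta1, Prosbeta2, Prosbeta5, Rpn6, Rpn10 and Rpn11, for the 4 canonical genes of lowest p in each comparison, for paralogs above background on at least 8 arrays, and for the 2 pathway genes of lowest p in each comparison. The members and lists were chosen with earlier results of these data known. Alternatives were the scaling, background correction (normexp, on the median spot signal), outlier spots, probe choice, slide, slide row, replicate block, model, test and each array left out. Data were simulated with 200 changed genes among 12925 and normal noise of the measured spread of each gene. At an adjusted p under 0.05, without the 2-fold limit, limma recovered 9%, 0% and 0% of genes set to a log2 change of 1. It recovered 41%, 46.5% and 49.5% of genes set to 2 (45 over 7, 35 over 7 and 45 over 35 days). The changed genes were drawn from all genes, so these shares do not say how often a changed proteasome gene would be called. The number of arrays limits the precision.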

Additional observations from a re-analysis of the deposited data

Results flagged for a closer look

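Within an age, 10 of 72 groups of arrays (23 named genes and the mean level of the canonical subunits, each at 3 ages) held 1 array far from the rest by Dixon's test at the 95% level, which chance alone gives in about 1 of 20 groups. Among the 45-day arrays, Rpn11 stood at −4.65 on replicate 4 (others −0.43 to 0.85), Rpn9 at −1.73 on replicate 3 (others −0.32 to 0.40), Rpn2 at −1.15 on replicate 6 (others −3.15 to −2.48) and Ubqn at −0.97 on replicate 5 (others −1.93 to −1.63). The value of Rpn2 rested on its dim probe 3, with −5.74 on that array and −10.13 to −9.38 on the others. Probes 1 and 2 of Rpn2 had 0.39 and 1.89 there, against −0.78 to 0.83 and 0.92 to 1.84 on the others. Among the 35-day arrays, Rpn12 stood at −3.12 on replicate 3 (others −2.16 to −1.95), Rpn2 at −4.04 on replicate 1 (others −3.27 to −3.04) and Sem1 at 3.52 on replicate 4 (others 3.01 to 3.13). Among the 7-day arrays, Keap1 stood at −2.72 on replicate 4 (others −1.62 to −1.48), Uba1 at −2.38 on replicate 1 (others −3.71 to −3.38) and Rpn2 at −3.65 on replicate 5 (others −2.88 to −2.59). Over the 32 canonical genes, such an array was found for 2 genes at 7 days, 2 at 35 days and 4 at 45 days.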

How the results depend on the processing

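No canonical subunit was called under any setting of the scaling, background correction, probe choice, slide, slide row or model, and the lowest adjusted p of a canonical gene over those settings was 0.313, 0.0949 and 0.275 (45 over 7, 35 over 7 and 45 over 35 days). The number of canonical genes with an unadjusted p under 0.05 moved more. At 45 over 7 days it was 0, and 1 with the brightest probe, in row 2 alone or with a term for the slide row. At 35 over 7 days it was 3, against 9 with each array scaled by its median, 6 by the methods' plain test and 1 on slide 1. At 45 over 35 days it was 1, against 4 after quantile normalization, 5 with the slide as a block, 3 on slide 1, 4 with all ages in 1 model, 4 by the methods' plain test, 3 with only probes above background on all 16 arrays (chosen after seeing the data), and 0 after median scaling, after normexp, with the brightest probe and on slide 2. The median canonical change at 45 over 7 days was 0.29 after median scaling and 0.16 on slide 2, and at 35 over 7 days 0.37 after median scaling and 0.21 with the brightest probe. Changes at 45 over 7 days took the opposite sign for Prosbeta2 (0.080), Rpn10 (0.24) and Rpn6 (0.30) after median scaling, for Rpn6 (0.064) and Ubqn (0.11) with the brightest probe, for Rpn11 (0.39) with the slide row as a term and in row 2, for Prosbeta5 (−0.077) and Rpn6 (0.075) on slide 1 and for Rpn10 (0.096) on slide 2. Rpn12 at 35 over 7 days was 0.27 with the slide row as a term. The cause was not tested.

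With each array left out in turn, the number of canonical genes with an unadjusted p under 0.05 was 0 to 1, 1 to 3 and 0 to 3 in the 3 comparisons. Members called at 35 over 7 days numbered 0 to 5, the 5 without replicate 4 of the 35-day arrays. At 45 over 7 days Prosbeta5 ranged from −0.12 to 0.10, Rpn11 from −1.02 to 0.084 and Rpn6 from −0.099 to 0.032. Brightness limits the paralogs, most of which lay at background.

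Same-numbered arrays of different ages had correlations of their deviations of −0.076 to 0.17. Arrays with different numbers were not compared, so whether replicate numbers pair the arrays was not settled. With the replicate number as a block (replicate block), the number of canonical genes with an unadjusted p under 0.05 was 1 at 45 over 7 days and 2 at 45 over 35 days. Prosbeta5 was then −0.12 and Rpn6 0.0090 at 45 over 7 days.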
